A study of Homo sapiens with 6 samples.

Results

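The genes described here are 43 transcription factor genes by which hepatocytes keep their identity and sense metabolites. They are the rows of the count table named for the HNF, FOXA, ONECUT, CEBP and GATA factors, for a few further liver regulators and for the nuclear receptors of liver. All 43 of them were found among the 79172 gene names in the table. The samples were of Huh7, an established human cell line from a hepatocellular carcinoma, a cancer of liver cells. One group, labelled Control, had 3 libraries, and the other, labelled Overexpressing HK1, had 3 libraries of cells that overexpress hexokinase 1, the enzyme of the first step of glucose use. The study asks how HK1 overexpression affects these cells. All samples were of a single line, and the vector, promoter and time of overexpression, and what the control cells received, are not given in the sources used here.

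Hepatocyte genes are driven by a small set of transcription factors that bind together at liver enhancers and at each other's genes. FOXA and GATA factors open chromatin, and HNF4A, ONECUT and CEBP factors then activate genes for plasma proteins and metabolic enzymes. Nuclear receptors are transcription factors whose activity is set by small molecules such as bile acids, oxysterols, fatty acids, heme, steroid and thyroid hormones or retinoids, and many bind DNA as a pair with a retinoid X receptor. Their messenger RNA level is therefore only a part of their activity, and the data here are messenger RNA levels.

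Library totals were 16771835 to 20823072 counts. The overexpression was seen in every library: HK1 had 13, 15 and 13 counts in controls and 9723, 10602 and 11101 in HK1-overexpressing cells. Hepatocyte markers were abundant, with a summed level of 13318 to 14221 CPM in controls and 10286 to 10629 CPM in HK1-overexpressing cells, where CPM is a gene's count scaled to library size by TMM. Of these 8 markers, 6 fell, among them ALB, and their part in the results below was not tested. The endothelial markers CDH5, KDR and CLEC4G were at 0 in all libraries. Markers of other cell types had sums of 566 to 574 CPM in controls and 611 to 631 CPM with HK1 for cholangiocytes, 14.6 to 16 and 18.9 to 22.4 CPM for fibroblasts and stellate cells, 4.58 to 6.93 and 5.20 to 6.27 CPM for endothelium, 64.7 to 74.9 and 47.4 to 51.9 CPM for blood cells, and 143 to 165 and 158 to 166 CPM for neural cells. The blood sum was mostly LYZ, with means of 65.9 CPM in controls and 45.7 CPM with HK1. The neural sum was mostly MAP2, at 151 and 158 CPM. Among the cholangiocyte markers SPP1 rose and SOX9 fell by the test described below, with log2 changes of 0.36 and -0.35. KRT19, the largest part of that sum, did not pass. Among the fibroblast and stellate markers COL1A2 alone passed, with a log2 change of 0.58. Such sums do not show that those cell types were present. Control libraries varied more than HK1-overexpressing ones: the chi-square per degree of freedom between pairs was 4.94 to 11 in controls and 1.58 to 2.28 in HK1-overexpressing cells. The labels do not say whether replicates were separate cultures. The p-values set the difference between groups against the variation between these libraries only, and that variation may be technical.

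Across the 43 genes, a fall of the bile acid receptor gene NR1H4 and of the FOXA1, FOXA2, FOXA3 and TBX3 genes, and a rise of CREB3L3 and CEBPB, were measured in HK1-overexpressing cells. The other regulators, HNF4A among them, did not pass the test below or were not tested. Their intervals ran from narrow, as for HNF4A, to wide, as for PROX1. A missing call does not show that a gene stayed unchanged. Of the 43 genes, 40 had counts high enough to be tested. By edgeR's quasi-likelihood test with Benjamini-Hochberg adjustment over all 16734 tested genes, 2 members rose and 5 fell at an adjusted p below 0.05. The background is 8.02% of all tested genes called, 3.87% higher and 4.15% lower. Among the 40 members 17.5% were called, and at an unadjusted p below 0.05 5 were higher and 10 lower. At that unadjusted p, 1785 of all 16734 tested genes were higher and 1882 lower. The median log2 change of the tested members was -0.00528, beside 0.00630 over all tested genes, and the median size of change was 0.15 beside 0.12. None of the members passed the test of edgeR's glmTreat against a fold of 1.5, which 0.287% of all genes passed. Libraries of the groups did not overlap for 14 of the 40, or 35.0%, beside 27.8% of all tested genes. Counts of called members moved with the libraries used: 1 rose and 1 fell without HK1-overexpressing replicate 1 or without replicate 2, 1 rose and 2 fell without HK1-overexpressing replicate 3, 1 rose and 3 fell without control replicate 3, and 4 rose and 7 fell without control replicate 2. Scaled by library totals only, 4 rose (NR5A2 and PPARG in addition) and 3 fell (FOXA2, TBX3 and NR1H4), and 66.3% of all called genes were higher in place of 48.3%. In bulk samples such as these, fewer cells that express a gene and less RNA per cell cannot be told apart.

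**Figure D1:**
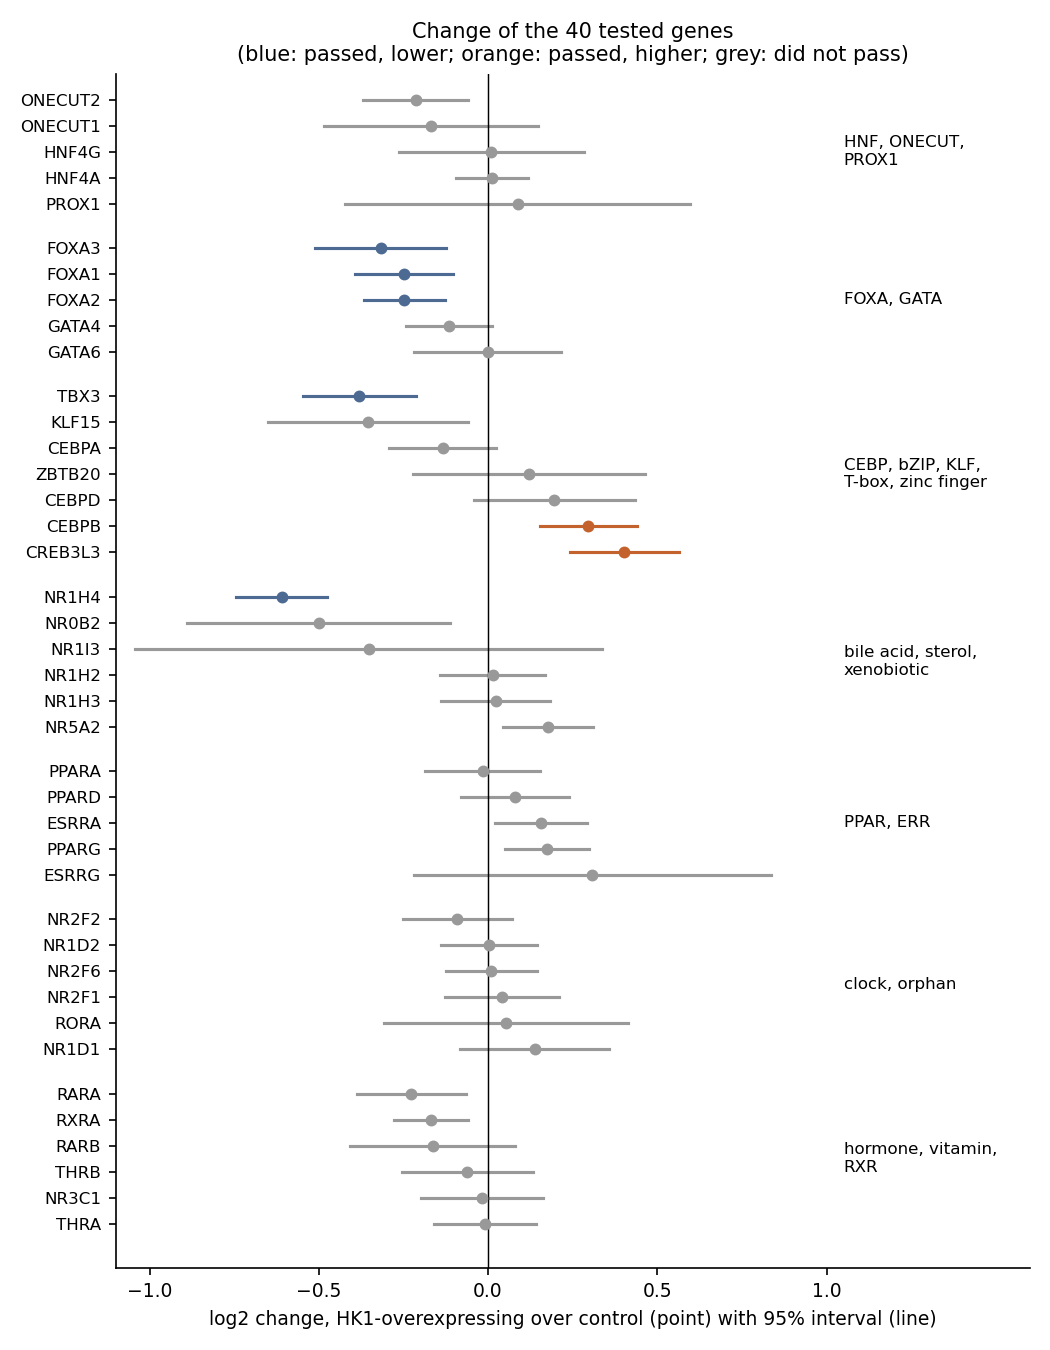
Log2 change of the 40 tested genes, HK1-overexpressing over control, on the horizontal axis, with each gene's 95% interval as a line and genes grouped by role. Blue points (FOXA1, FOXA2, FOXA3, TBX3, NR1H4) fell, orange points (CEBPB, CREB3L3) rose and grey points did not pass the test. NR1H4 lies farthest from 0, at -0.61.

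NR1H4 encodes FXR, the receptor through which hepatocytes sense bile acids and restrain their synthesis. Its level was 49.6, 47 and 50.2 CPM in control replicates 1, 2 and 3 and 33.3, 31.7 and 31.2 CPM in HK1-overexpressing replicates 1, 2 and 3. All 3 HK1-overexpressing libraries lay below all 3 controls, and the gap between the groups was wider than the spread in either. The mean fell from 48.9 ± 1.70 to 32.1 ± 1.11 CPM (SD, n = 3 per group), or by -0.61 on the log2 scale (standard error, SE, 0.0631, 95% interval -0.75 to -0.47, edgeR adjusted p = 3.26e-05). The size of this change was above that of 95.5% of all tested genes. The call held under all 17 alternative settings and without any single library, where the largest edgeR adjusted p was 0.00136. The gene lies on chromosome 12 from 100473708 to 100564414 (hg38), on the plus strand, and shares no exon base with another gene in the table.

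CREB3L3 encodes a liver transcription factor anchored in the endoplasmic reticulum that is released by cleavage and acts on lipid metabolism and acute phase genes. It was at 14.8, 14.3 and 14.8 CPM in control replicates 1, 2 and 3 and at 19.7, 19.1 and 19.3 CPM in HK1-overexpressing replicates 1, 2 and 3. Replicates of both groups were tight and the groups did not overlap. The mean rose from 14.6 ± 0.268 to 19.4 ± 0.289 CPM (SD, n = 3 per group), or by 0.40 on the log2 scale (SE 0.0752, 95% interval 0.24 to 0.56, edgeR adjusted p = 0.00414). This was the other member called under all 17 alternatives, with a largest adjusted p of 0.0291. It lies on chromosome 19 from 4153631 to 4173054 (hg38), plus strand, free of exon overlap.

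The stretches before the start sites of these genes are shown because NR1H4 moved down while CREB3L3 and CEBPB moved up. Of the 43 genes, 34 had an entry in the RefSeq promoter table (build GRCh38.p14), which holds neither FOXA2 nor TBX3. Within the 250 bases before the RefSeq start, 5 short motifs were searched on both strands, and none of these overlaps another. Each stretch of 120 bases below overlaps no exon in the count table, and capitals mark motif letters as read on the plus strand.
NR1H4 (chr12:100503110-100503229, plus strand, from 250 to 131 bases before the start): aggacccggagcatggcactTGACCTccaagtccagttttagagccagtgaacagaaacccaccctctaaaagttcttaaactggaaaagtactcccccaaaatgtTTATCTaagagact
CREB3L3 (chr19:4153396-4153515, plus strand, from 235 to 116 bases before the start): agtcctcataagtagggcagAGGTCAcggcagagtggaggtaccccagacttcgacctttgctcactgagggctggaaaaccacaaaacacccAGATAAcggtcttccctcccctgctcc
CEBPB (chr20:50190463-50190582, plus strand, from 120 to 1 bases before the start): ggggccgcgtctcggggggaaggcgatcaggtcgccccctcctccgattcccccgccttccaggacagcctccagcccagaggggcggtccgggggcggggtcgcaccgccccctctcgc

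In these stretches NR1H4 and CREB3L3 each hold the nuclear receptor hexamer AGGTCA, in NR1H4 as its reverse complement, and the GATA motif AGATAA, again as its reverse complement in NR1H4. CEBPB holds none of the 5. Among the 34 members with an entry, AGGTCA was found in 7, or 20.6%, beside 12.1% of all 27305 promoters of the same length. The 7 were FOXA3, CREB3L3, NR1H4, NR5A2, NR1H3, PPARG and RARA, which include genes that fell, rose and did not pass. The motif AGATAA was found in 4 (HNF4A, CREB3L3, NR1H4 and NR5A2), or 11.8%, beside 9.4% of all. The E-box CACGTG was found in ONECUT1, KLF15 and NR2F2, or 8.8%, beside 6.5% of all. Neither the FOXA motif TGTTTAC nor the HNF4 core CAAAGTC was found in a member, beside 3.0% and 2.9% of all promoters. The start of NR1H4 used by RefSeq lies within the gene as the count table bounds it, so transcripts that begin elsewhere have other promoters.

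The 3 FOXA genes, pioneer factors that make liver enhancers accessible, all fell by small amounts. FOXA2 was at 78.3, 74.3 and 73.3 CPM in controls and 62.6, 62.7 and 65.1 CPM in HK1-overexpressing libraries. FOXA1 was at 59.3, 52.4 and 51.3 CPM in controls and 46.0, 44.8 and 46.6 CPM with HK1. FOXA3 was at 15.6, 17.5 and 14.7 CPM in controls and 12.7, 13.6 and 12.2 CPM with HK1. In each of the 3 genes every HK1-overexpressing library lay below every control library, with the narrowest gap for FOXA3. FOXA2 changed by -0.25 on the log2 scale (SE 0.0561, edgeR adjusted p = 0.0141), FOXA1 by -0.25 (SE 0.0673, edgeR adjusted p = 0.0358) and FOXA3 by -0.32 (SE 0.0904, edgeR adjusted p = 0.0450). FOXA2 was not called without HK1-overexpressing replicate 1, 2 or 3 (edgeR adjusted p = 0.0982, 0.107 and 0.0556), and FOXA1 was called only without control replicate 2 among the 6 fits that leave out a library. FOXA1 also lost its call with library totals only (edgeR adjusted p = 0.0780). FOXA3 was called in 6 of the 17 alternatives. It kept its call only without control replicate 1 among those 6 fits, and lost it with DESeq2, limma-voom, quality weights, no robust dispersion, library totals only, or genes under a mean CPM of 5 left out. The direction of the 3 genes was the same in all 17 alternatives, with a log2 change between -0.37 and -0.17.

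GATA4 and GATA6, zinc finger factors of endoderm that act beside FOXA, did not pass. GATA4 was at 93.2 ± 4.18 CPM in controls and 86.1 ± 4.66 CPM with HK1 (SD, n = 3 each, log2 -0.11, 95% interval -0.24 to 0.01, edgeR adjusted p = 0.283). GATA6 was at 14.7 ± 2.07 and 14.7 ± 0.880 CPM, with an interval of -0.22 to 0.22. GATA4 has a second copy of its exons on an alternate sequence of the annotation, where fragments that map to both places may be missing from the counts.

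TBX3, a T-box repressor of liver progenitors and a target of Wnt signalling in hepatocellular tumours, was at 28.4, 24.2 and 25.8 CPM in controls and at 19.7, 19.9 and 20.6 CPM in HK1-overexpressing libraries. The groups did not overlap, and the 3 HK1-overexpressing libraries were close together. It fell from 26.1 ± 2.12 to 20.1 ± 0.503 CPM (SD, n = 3 per group), or by -0.38 on the log2 scale (SE 0.0780, edgeR adjusted p = 0.00778). The call was lost without HK1-overexpressing replicate 1 or 2 (edgeR adjusted p = 0.0556 and 0.0539) and kept in the other 15 alternatives.

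The CEBP factors, leucine zipper proteins of hepatocyte metabolism and the acute phase, did not share a direction. CEBPB was at 37.5, 35.9 and 32.8 CPM in controls and at 44.5, 42.8 and 43.2 CPM in HK1-overexpressing libraries. All 3 HK1-overexpressing libraries were above the controls. It rose from 35.4 ± 2.36 to 43.5 ± 0.878 CPM (SD, n = 3 per group), or by 0.30 on the log2 scale (SE 0.0667, edgeR adjusted p = 0.0132). Leaving out control replicate 3, or any one HK1-overexpressing replicate, ended the call (edgeR adjusted p of 0.0651 to 0.0779). CEBPB shares 17.8% of its exon bases with CEBPB-AS1 on the opposite strand, and counting without strand cannot tell these apart. CEBPA, the CEBP factor of mature hepatocytes, was at 89.6, 82.2 and 74.3 CPM in controls and 69.1, 76.1 and 79.4 CPM with HK1. Its groups overlapped, and it was not called (log2 -0.13, 95% interval -0.29 to 0.02, edgeR adjusted p = 0.318). CEBPA shares 45.6% of its exon bases with other genes, the largest share among the 43, which also bears on its level. CEBPD, an acute phase factor, was at 8.18 ± 1.14 and 9.40 ± 0.421 CPM (SD, n = 3 each) and was not called either (log2 0.20, edgeR adjusted p = 0.338).

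**Figure D2:**
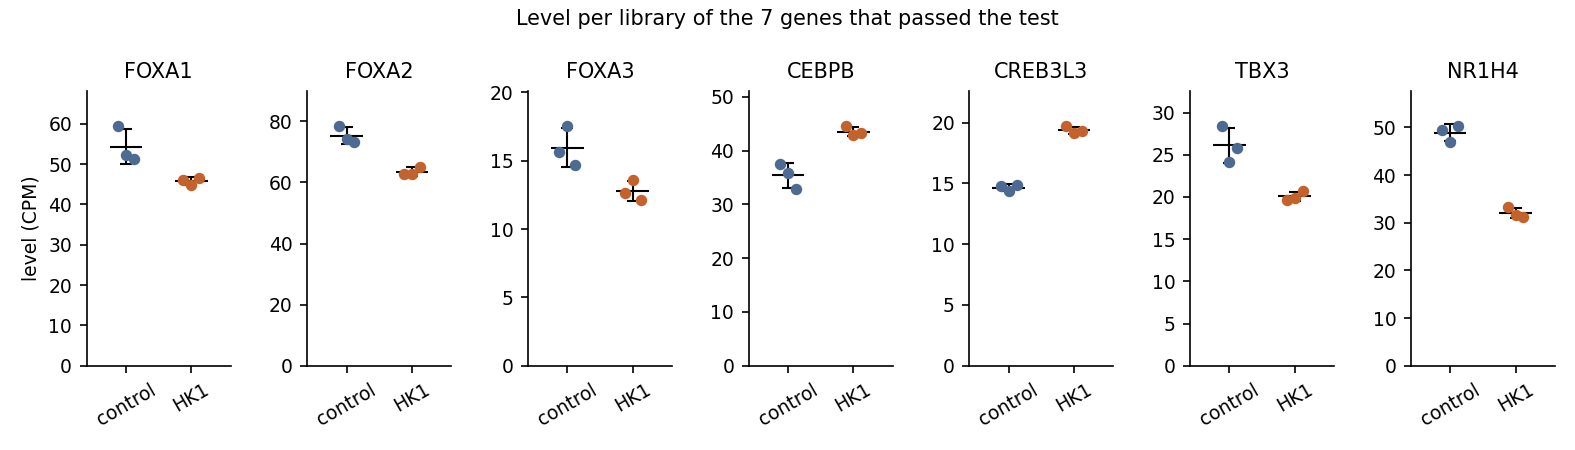
Level in CPM (vertical axis, from 0) of the 7 genes that passed the test, with 1 point per library, the group mean as a horizontal line and the SD as a bar (n = 3 each). In all 7 genes the control and HK1-overexpressing libraries do not overlap, and NR1H4 shows the widest gap, from 47 to 50.2 CPM in controls to 31.2 to 33.3 CPM with HK1.

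HNF4A, the nuclear receptor at the centre of hepatocyte identity, differed by less than the spread between libraries. Its level was 160.5, 151 and 155 CPM in controls and 156, 153 and 161 CPM in HK1-overexpressing libraries. The values of the groups interleave, and the log2 change was 0.01 with a 95% interval of -0.10 to 0.12 (edgeR adjusted p = 0.924). Counts were summed over the gene, so transcripts from its separate promoters cannot be told apart here. HNF4G, its paralog, was much less abundant, at 8.97 ± 1.77 and 9.06 ± 0.286 CPM (SD, n = 3 each, log2 0.01, interval -0.26 to 0.28). ONECUT2 and ONECUT1, the cut-homeobox factors, were at 114 ± 13.1 and 98.7 ± 0.983 CPM and at 12.7 ± 3.04 and 11.4 ± 0.253 CPM (SD, n = 3 each). ONECUT1 was called lower without control replicate 2 (log2 -0.33, edgeR adjusted p = 0.0410). ONECUT2 had an adjusted p of 0.0906 (edgeR, log2 -0.21), and it was called lower without control replicate 2, with no filter on low counts, with quality weights and with an exon length trend removed.

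PROX1, a homeobox regulator of hepatoblasts, had the widest spread between control libraries in CPM. It was at 205, 124 and 176 CPM in control replicates 1, 2 and 3 and at 173, 178 and 186 CPM in HK1-overexpressing replicates. Control replicates 1 and 2 lay on either side of all HK1-overexpressing values, and the 95% interval of the log2 change ran from -0.42 to 0.60 (edgeR adjusted p = 0.851). PROX1, THRB, ONECUT1, RORA, NR3C1, HNF4G and ZBTB20 were among the members whose lowest control level was in control replicate 2. Across the 40 tested members, the deviation of control replicate 2 from the control mean correlated with exon length at a Spearman rho of -0.53, that of control replicate 1 at 0.39 and that of control replicate 3 at 0.26. In HK1-overexpressing replicates 1, 2 and 3, set against their own mean, the values were -0.27, 0.36 and -0.15, so members deviated by length in both groups. Over all 16734 tested genes control replicates 1 and 2 had values of 0.24 and -0.22, and HK1-overexpressing replicates stayed between -0.0441 and 0.0398. Genes are not replicates and deviations within a group are tied to each other, so these are descriptions. The SD of the log2 level was larger among controls than among HK1-overexpressing libraries in 32 of the 40, with medians of 0.12 and 0.0554. With the exon length trend removed from each library, 2 members rose and 7 fell, an alternative chosen after seeing the data. The 5 fallen genes above were among the 7, with ONECUT2 and RXRA.

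**Figure D3:**
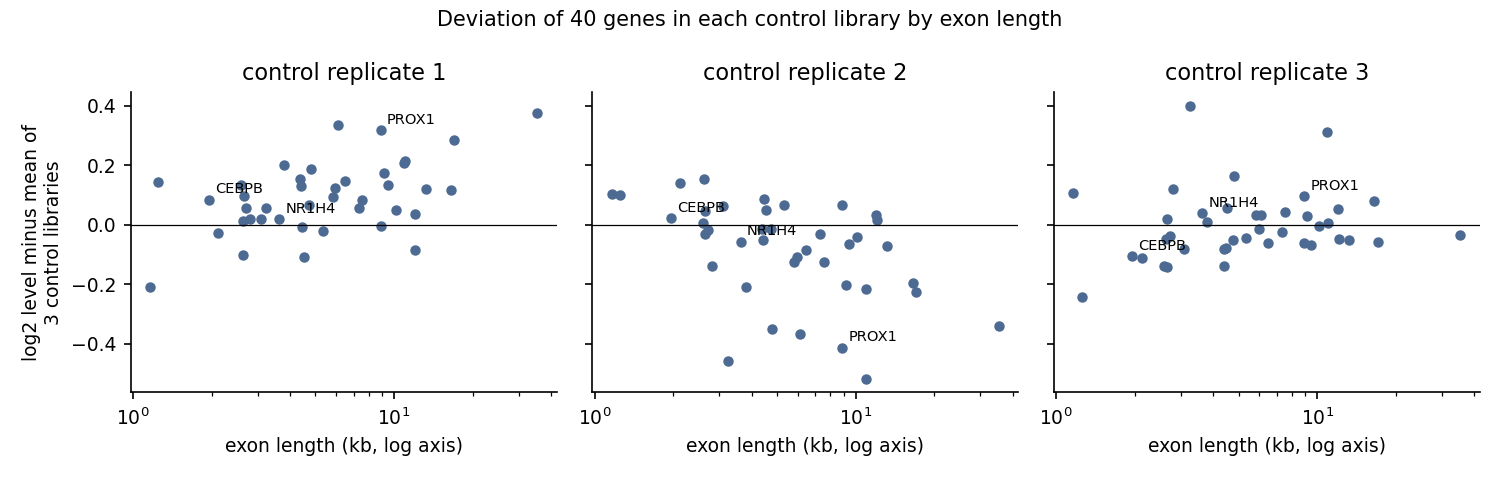
Log2 level of the 40 tested genes in each control library minus the mean of the 3 control libraries (vertical axis) against exon length in kilobases (horizontal log axis). Longer genes tend to lie above 0 in control replicate 1 and below 0 in control replicate 2 (Spearman rho 0.39 and -0.53), with PROX1 an example.

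Of the remaining receptors for bile acids, sterols and xenobiotics, none was called. NR0B2, which encodes SHP, a repressor that FXR induces and that lacks a DNA-binding domain, was at 3.07, 3.82 and 3.83 CPM in controls and 2.83, 1.98 and 2.75 CPM with HK1. The groups did not overlap, but counts were few, with 41 to 65 per library, and the log2 change of -0.50 had an interval of -0.89 to -0.11 and did not pass (edgeR adjusted p = 0.112). NR0B2 was called lower without control replicate 1 and with quality weights. NR5A2, or LRH-1, which activates bile acid synthesis genes that SHP represses, was at 78.4, 67.9 and 76.2 CPM in controls and at 85.4, 84.1 and 82.3 CPM with HK1. All HK1-overexpressing libraries were above the controls, and the log2 change of 0.18 missed the threshold (edgeR adjusted p = 0.0994). NR5A2 was called higher with library totals only and without control replicate 1. The oxysterol receptor genes NR1H3 and NR1H2, for LXR alpha and LXR beta, had log2 changes of 0.02 and 0.01 with intervals of -0.14 to 0.18 and -0.14 to 0.17. The xenobiotic receptors were scarce. NR1I3, for CAR, had 11 to 22 counts per library and an interval of -1.04 to 0.34, and NR1I2, for PXR, had 2 to 5 counts and was not tested.

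The fatty acid receptors and estrogen-related receptors had no called member. PPARG, which drives lipid storage, was at 65.1, 70.6 and 71.6 CPM in controls and 80.1, 76.6 and 77.1 CPM with HK1. The groups did not overlap, and the log2 change was 0.17 (95% interval 0.05 to 0.30, edgeR adjusted p = 0.0826). PPARG was called higher with library totals only and without control replicate 2. PPARA, the fasting-response receptor of liver, was at 19.2 ± 1.42 and 19.0 ± 0.467 CPM (SD, n = 3 each, log2 -0.02, interval -0.19 to 0.15), and PPARD at 26.3 ± 1.5 and 27.8 ± 1.53 CPM. ESRRA, a regulator of mitochondrial genes, was at 45.4, 46.8 and 42.3 CPM in controls and 48.1, 50.1 and 51.7 CPM with HK1, without overlap (log2 0.16, edgeR adjusted p = 0.163). ESRRA was called higher without control replicate 2 and with quality weights. ESRRG had 14 to 34 counts per library and an interval of -0.22 to 0.84.

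Clock-linked and orphan receptors, the heme-binding repressors NR1D1 and NR1D2, the activator RORA and the COUP-TF genes NR2F1, NR2F2 and NR2F6, had log2 changes between -0.09 and 0.14, and none passed. NR2F6 was at 102, 98.7 and 86.6 CPM in controls and 96.9, 97.6 and 95.2 CPM with HK1. The HK1-overexpressing values lay inside the control range (log2 0.01, interval -0.12 to 0.14, edgeR adjusted p = 0.95). NR1D1 and THRA lie on opposite strands of chromosome 17 and share 473 exon bases, 18.0% of the exon length of NR1D1, where fragments cannot be assigned to either. NR1D1 changed by 0.14 (interval -0.08 to 0.36) and THRA by -0.01 (interval -0.16 to 0.14) on the log2 scale.

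Among hormone and vitamin receptors and their RXR partner, RXRA came nearest to the threshold. It was at 156, 153 and 147 CPM in controls and 131, 136 and 139 CPM with HK1. The groups did not overlap, and the log2 change was -0.17 (SE 0.0509, 95% interval -0.28 to -0.06, edgeR adjusted p = 0.0559). It was called lower without control replicate 2, with quality weights and with the exon length trend removed. RARA, a retinoic acid receptor, was at 22.4 ± 0.941 and 19.2 ± 0.894 CPM (SD, n = 3 each, log2 -0.23, edgeR adjusted p = 0.0827). RARB, its paralog, was at 8.56 ± 0.699 and 7.67 ± 0.889 CPM, with a log2 interval of -0.41 to 0.08. The glucocorticoid receptor NR3C1, at 48.8 ± 6.31 and 48.2 ± 1.91 CPM, and the thyroid hormone receptor THRB, at 56.7 ± 8.38 and 54.4 ± 1.26 CPM, did not pass. VDR, the vitamin D receptor, had 0 to 3 counts per library and was not tested. RXRB, with 2 to 43 counts per library, was not tested either. Its exons are repeated on 5 alternate sequences of the annotation, and whether fragments were lost for that reason was not tested.

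KLF15, a glucocorticoid-responsive factor of amino acid catabolism, was at 5.89, 5.29 and 6.32 CPM in controls and 4.80, 3.81 and 5.08 CPM with HK1, without overlap, and missed the threshold (log2 -0.35, edgeR adjusted p = 0.140). With quality weights KLF15 was called lower. ZBTB20, a repressor of AFP in liver, had an interval of -0.22 to 0.46, and 44.9% of its exon bases are shared with other genes. Of the 33 tested members that were not called, 7 had groups that did not overlap, 4 below and 3 above. Over all 40, called genes included, 9 lay below and 5 above, beside 13.9% below and 14.0% above among all tested genes. The 95% interval lay within 1.5-fold in both directions for 34 of the 40, and reached further for 6.

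Levels can be compared between genes only per exon length, here as TPM. NR2F6 was highest at 108 ± 12.2 TPM in controls, then CEBPA at 94.0 ± 12.1, FOXA2 at 82.5 ± 6.27, PROX1 at 56.6 ± 15.9, CEBPB at 53.9 ± 5.31 and HNF4A at 45.5 ± 3.31 TPM (SD, n = 3 each). Each neighbour in this order lies within the sum of both SDs of the next, except that FOXA2 stands above PROX1 by more than that sum. Among the bile acid, sterol and xenobiotic receptors NR1H4 was highest in controls, at 40.2 ± 2.64 TPM, and NR5A2 was higher with HK1, at 34.2 ± 0.376 against 27.2 ± 0.724 TPM. Of the 43 genes, 29 had a mean of at least 10 TPM and 36 of at least 1 TPM. Exon length counts all annotated exons, so a gene with many rarely used exons appears lower. With exons on alternate sequences left out of the length, GATA4 moves from 30.5 to 61.0 TPM, from rank 13 to rank 5.

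**Figure D4:**
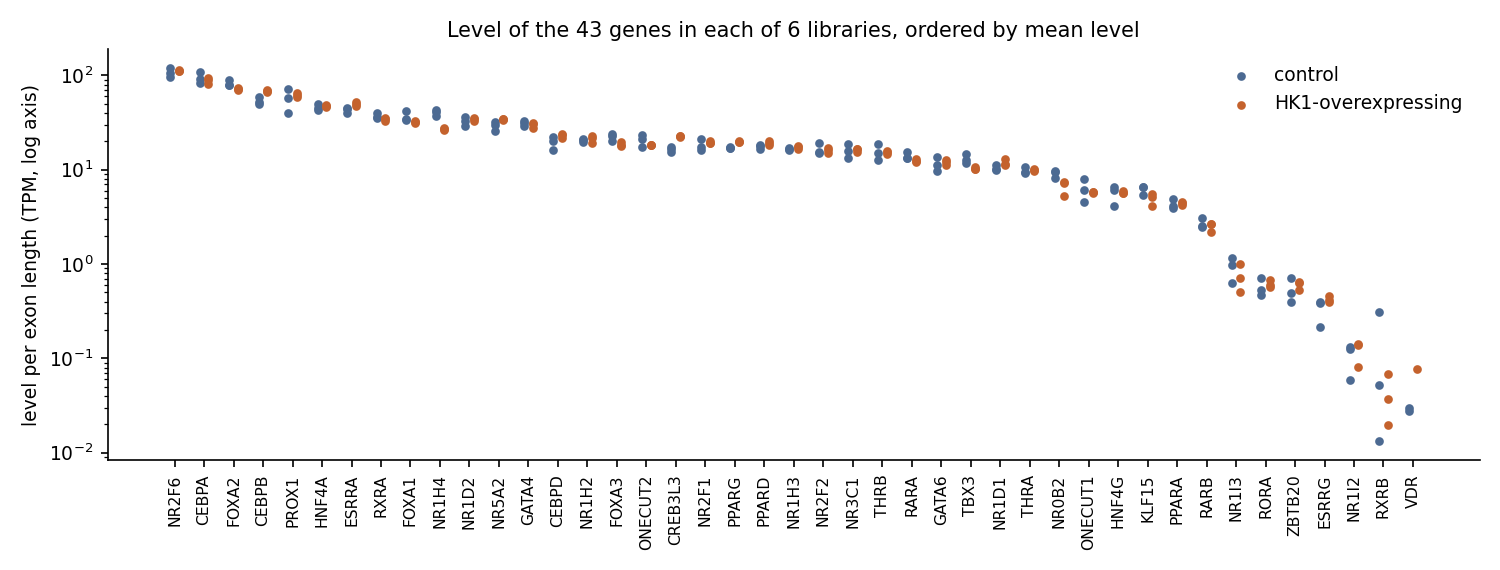
Level per exon length in TPM (log vertical axis) of the 43 genes in each library, ordered by mean level, blue for control and orange for HK1-overexpressing. NR2F6 leads, 29 genes have a mean of at least 10 TPM, and libraries with a count of 0 for VDR are not drawn.

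Of all 48 human nuclear receptor genes, 28 are members here and 20 are not, and 35 were tested. In these 35, 2 fell and 0 rose by edgeR at an adjusted p below 0.05: NR1H4 and NR6A1, an orphan receptor outside the 43, which fell from 61.7 ± 3.2 to 49.0 ± 1.94 CPM (SD, n = 3 each, log2 -0.33, edgeR adjusted p = 0.00443). Of the 15 members that are not nuclear receptors, all tested, 4 fell and 2 rose. Beside the counts in this paragraph, 3.87% of all tested genes were called higher and 4.15% lower. Among 15 tested further liver transcription factors 4 fell and 0 rose, among them HLF, a clock output factor, by 0.53 on the log2 scale, MLXIPL, the glucose-responsive factor ChREBP, by 0.31, and SREBF1, a lipogenic factor, by 0.28. The count was 1 without HK1-overexpressing replicate 1 or 2, and 2 without HK1-overexpressing replicate 3 or control replicate 3. Of 19 coregulators 1 rose, PPARGC1A, which coactivates HNF4A and PPAR receptors, from 12.6 ± 2.22 to 16.5 ± 1.01 CPM (SD, n = 3 each, log2 0.39, edgeR adjusted p = 0.0489). The count was 0 with DESeq2, with limma-voom, without a robust dispersion, and without control replicate 3 or any one HK1-overexpressing replicate, and it was 3 without control replicate 1. Without control replicate 2, 0 coregulators rose and 1 fell.

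Genes known to be driven by these factors are set beside them, without a test of the link. The share to set beside the counts in all these lists is 8.02% of all tested genes called, 3.87% higher and 4.15% lower. Of 13 tested HNF4A targets 9 fell and 0 rose, with a median log2 change of -0.51, while HNF4A itself had the interval of -0.10 to 0.12 given above. APOA2 changed by -1.0, APOA1 by -0.70 and TF, transferrin, by -0.54 on the log2 scale, all called. Of 10 tested FXR targets 4 fell and 0 rose. KNG1, kininogen, changed by -1.21, UGT2B4, which conjugates bile acids, by -0.68, FGF19, the bile acid-induced hormone, by -0.54 and SDC1, syndecan, by -0.34 on the log2 scale. ABCB11, the bile salt export pump, was at 1.17 ± 0.0636 and 0.573 ± 0.266 CPM (SD, n = 3 each) and did not pass (edgeR adjusted p = 0.0714). It had only 6 to 22 counts per library and is named after its values were seen. Of the other uncalled FXR targets, SLC27A5 and SLC51A changed by 0.44 and 0.13. SLC51B, ABCB4 and BAAT changed by -0.23, -0.21 and -0.01. Many of the HNF4A and FXR targets are also genes for liver plasma proteins, which were known to be lower in these data when the lists were drawn up. The HNF4A targets APOA1, APOB, TTR, TF and SERPINA1 are also hepatocyte markers, so their changes enter both counts.

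Targets of the xenobiotic receptors moved in both directions. Of 10 tested, 3 rose (CYP2C8 by 3.26, UGT1A1 by 0.61 and SULT2A1 by 0.39 on the log2 scale) and 2 fell (GSTA2 and ABCB1, by 1.08 and 0.28). UGT1A1 shares exons with the other UGT1A genes and GSTA2 has close paralogs, so their counts are uncertain. Of 13 tested PPAR targets 2 rose, PLIN2, a lipid droplet protein, by 0.30 and CPT1A, of fatty acid import into mitochondria, by 0.28, and 1 fell, FABP1, which changed by -0.84. Of 8 tested LXR targets 2 fell, SREBF1 and FASN, by 0.28 and 0.27, but 0 fell without HK1-overexpressing replicate 1 or 2 and 1 without control replicate 2. Of 14 tested clock genes 1 rose, BHLHE40, by 0.42, and 1 fell, HLF. The clock genes called numbered 4, with 3 higher, with library totals only, with genes under a mean CPM of 5 left out, and without control replicate 1.

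Of 8 tested glucocorticoid receptor targets 1 rose, SGK1, by 0.33 and 1 fell, TAT, which changed by -0.90, and 3 fell without control replicate 2. Of 4 tested targets of retinoid, thyroid and vitamin D receptors none was called by edgeR, with 0 at an unadjusted p below 0.05, and the one of smallest p was KLF9, at 14.6 ± 2.97 and 12.3 ± 1.58 CPM (SD, n = 3 each). Without control replicate 2, 1 of the 4 was called lower. Of 2 tested CREB3L3 targets 1, FADS1, changed by -0.29 and was called lower, while CREB3L3 rose. The other, CIDEC, changed by 0.35 with all HK1-overexpressing libraries above the controls, and was not called (edgeR adjusted p = 0.208). CIDEC had only 44 to 87 counts per library and is named after its values were seen. SREBF1, HLF, KLF9 and some others stand in more than 1 of these lists.

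**Figure D5:**
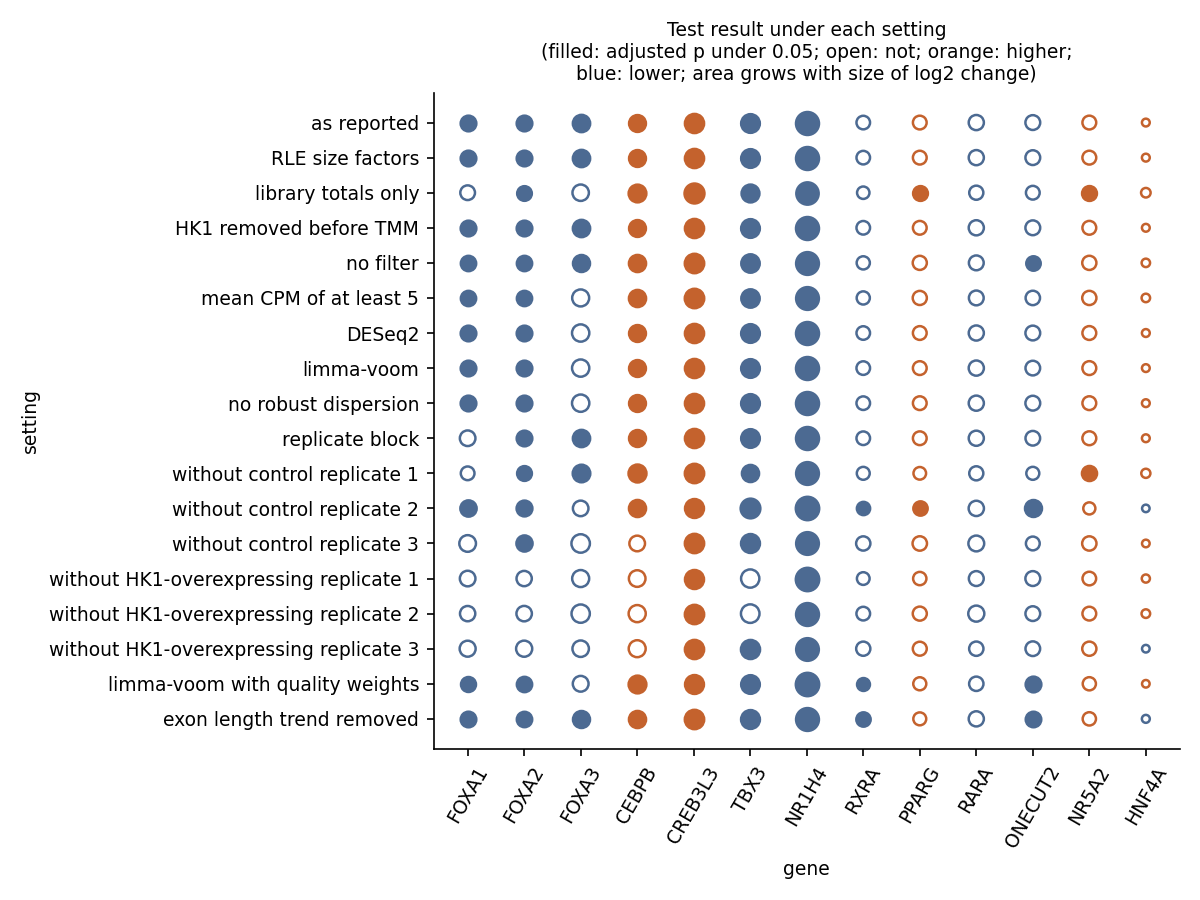
Test result of the 7 called genes, of the 5 that came nearest to the threshold and of HNF4A (horizontal axis) under each setting (vertical axis). Filled circles passed at an adjusted p below 0.05, open ones did not, orange is higher and blue lower with HK1, and the area grows with the size of the log2 change. NR1H4 and CREB3L3 are filled in every row, and FOXA1, FOXA2, FOXA3 and CEBPB are open in the rows without an HK1-overexpressing replicate.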

How the data were processed

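Messenger RNA of 6 Huh7 samples was measured by RNA-seq with a stranded mRNA kit, per the labels' protocols. The authors counted fragments per gene with featureCounts 1.5.3 over exons of GENCODE release 47 with patches and haplotypes, per the file headers. These deposited raw counts were made with no strand option and no option for fragments that map to several places or genes. Trim Galore, Subread and hg38 are named per the submitters' processing notes.

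The 6 count columns held only whole numbers. Genes were filtered by filterByExpr, scaled by TMM and compared with edgeR 4.0.16 (R 4.3.3), robust quasi-likelihood, with group as the only term and adjusted over 16734 genes at 0.05. Standard errors are the unshrunken coefficient over the square root of F, and the 95% intervals use them. TPM came from counts and the table's exon lengths. DESeq2 1.42.0 and limma 3.58.1 were alternatives. The test was tried on simulated data. Figures used matplotlib 3.10.9.

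The 43 genes, the other lists and the tests were chosen with earlier results of these data known. Every member could be named, with values per library for called members and for the highest per exon length in each role group, and of other lists up to 4 called genes of smallest p. The labels do not say whether same-numbered replicates belong together. Their deviations showed little correlation, and the main test used no block. Some genes of the other lists are not reported here by name.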

Additional observations from a re-analysis of the deposited data

How the results depend on the processing

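Among the 7 called genes NR1H4 and CREB3L3 passed under all 17 alternatives, and the other 5 kept their direction in all 17. Members called higher and lower numbered 4 and 3 with library totals only, and 1 and 2 at an adjusted p below 0.01. With limma-voom quality weights, chosen after seeing the data, 8 members were lower. Coregulators called numbered 2 with library totals only, no filter, a mean CPM of at least 5 or the exon length trend removed, and 0 with DESeq2, limma-voom or no robust dispersion. Clock genes called numbered 4 with library totals only, no filter, a mean CPM of at least 5, quality weights or the length trend removed, and glucocorticoid receptor targets 1 with a mean CPM of at least 5. The cause of these moves was not tested. All genes called numbered 1342, with 1950 under quality weights and 1074 with the replicate block, where 2 members were higher and 4 lower and FOXA1 was not called (edgeR adjusted p = 0.0561). Same-numbered libraries correlated at 0.00707, 0.0579 and -0.0304 in their deviations. Deviations within a group are tied to each other, so these small values cannot show whether same-numbered samples were handled together.

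Leaving out 1 library at a time gave 1 to 4 members higher, 1 to 7 lower, 0 to 0 past 1.5-fold and 536 to 2257 genes called in all. Called genes numbered 1 to 1 for other nuclear receptors, 1 to 6 for other liver transcription factors, 0 to 3 for coregulators, 6 to 11 for HNF4A targets, 4 to 4 for FXR targets, 4 to 6 for PXR and CAR targets, 3 to 3 for PPAR targets, 0 to 2 for LXR targets, 2 to 4 for clock genes, 2 to 4 for glucocorticoid receptor targets, 0 to 1 for retinoid, thyroid and vitamin D targets and 1 to 1 for CREB3L3 targets. NR0B2, NR1I3 and ESRRG had few counts and wide intervals, and NR1I2 and VDR had too few counts to be tested.

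In 16 members that were not called, the log2 change had the other sign in 46 fits. Over fits without 1 library it ran from -0.0074 to 0.040 for HNF4A, -0.14 to 0.11 for HNF4G, -0.33 to 0.029 for ONECUT1, -0.088 to 0.26 for PROX1, -0.10 to 0.11 for GATA6, -0.030 to 0.35 for ZBTB20, -0.035 to 0.082 for NR1H2, -0.027 to 0.060 for NR1H3, -0.049 to 0.054 for PPARA, -0.053 to 0.056 for NR1D2, -0.051 to 0.22 for RORA, -0.025 to 0.13 for NR2F1, -0.058 to 0.064 for NR2F6, -0.11 to 0.080 for NR3C1, -0.026 to 0.025 for THRA and -0.16 to 0.059 for THRB. Under other settings the values of the other sign were -0.014 for HNF4A, -0.056 for HNF4G, 0.037, 0.011, 0.013, 0.0012, 0.0035, 0.0064, 0.0022 and 0.0050 for GATA6, 0.023 and 0.0039 for PPARA, -0.014 and -0.0034 for NR1D2, 0.021 for NR3C1 and 0.030, 0.0040, 0.0053 and 0.0040 for THRA.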
